A study of Arabidopsis thaliana with 12 samples.

Results

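The comparison set leaves of the Arabidopsis thaliana line cat2 gox2 against leaves of the line cat2 gox1, both harvested after high light, by messenger RNA sequencing. It uses 6 of the 12 libraries of the series, 3 of cat2 gox2 and 3 of cat2 gox1, chosen by line and treatment. Both lines are in the Columbia-0 background and both carry the cat2-2 mutation of CATALASE 2, so cat2-2 is shared by every library. They differ by the second mutation, in GLYCOLATE OXIDASE 2 (cat2-2 gox2) or in GLYCOLATE OXIDASE 1 (cat2-2 gox1). Plants were 3 weeks old and had grown in air with 3000 ppm CO2 under light of 120 µmol m-2 s-1. For high light they were moved to 400 ppm CO2 and 1200 µmol m-2 s-1 for 3 h. The other 6 libraries came from the same lines kept at high CO2 and are used here as the state before the treatment. No library had an intact CAT2 or only a single mutation, and light, CO2 and elapsed time changed together, so their effects cannot be told apart. Each line stands for 1 mutant combination, and each library pooled the middle-aged leaves of 15 plants, as 1 of 3 biological repeats per group.

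Glycolate oxidases sit in peroxisomes. They oxidise glycolate, which forms when Rubisco fixes oxygen in place of CO2, and release hydrogen peroxide. Catalase 2, the main catalase of leaf peroxisomes, breaks that hydrogen peroxide down, and in its absence a fall in CO2 together with strong light is known to raise peroxisomal hydrogen peroxide. High CO2 holds photorespiration low. Hydrogen peroxide is also known as a signal that alters transcription of heat shock proteins, detoxifying enzymes and stress transcription factors. The comparison asks whether loss of GOX2 and loss of GOX1, in plants mutated in CAT2, lead to different transcriptomes once photorespiration starts.

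Levels are given as CPM, a gene's counts relative to the scaled library total, always for replicates 1, 2 and 3 in that order within a line, and a level was not compared between genes. Differences are log2 of cat2 gox2 over cat2 gox1, so a positive value is higher in cat2 gox2. Tests were two-sided and used the quasi-likelihood model of edgeR, p-values were adjusted by Benjamini-Hochberg over all 18967 genes tested, and the threshold was 0.05. The 6 high light libraries held between 19571516 and 25314811 counts. The largest principal component of these libraries held 46.6% of the variance and separated the lines, with cat2 gox2 at 27.6, 41.9 and 27.0 and cat2 gox1 at -26.0, -21.4 and -49.1. Replicate 2 of cat2 gox2 and replicate 3 of cat2 gox1 lay farthest out on it. The next component held 20.0% and set these libraries apart within the lines. On it cat2 gox2 lay at -21.3, 22.9 and -20.2 and cat2 gox1 at 21.6, 21.5 and -24.4. So cat2 gox2 replicate 2 lay beside cat2 gox1 replicates 1 and 2, and cat2 gox1 replicate 3 beside cat2 gox2 replicates 1 and 3.

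The 3 mutated genes were read first. GOX1 (AT3G14420, chr3:4821391-4824178 in TAIR10.1) had 943, 987 and 1043 CPM in cat2 gox2, against 150.03, 189.8 and 128 CPM in cat2 gox1. Every cat2 gox2 library was higher than every cat2 gox1 library (log2 difference 2.67, SE 0.161, adjusted p = 1.24e-05), as the labels call for. GOX2 (AT3G14415, chr3:4818251-4821013) had 7.48, 122 and 6.98 CPM in cat2 gox2, against 570.5, 653 and 451 CPM in cat2 gox1. All cat2 gox2 libraries were below all cat2 gox1 libraries, but the library labelled cat2 gox2 replicate 2 held far more GOX2 than the other two of its group (log2 difference -3.62, SE 0.909, adjusted p = 0.0370). Whether that library holds RNA of plants with another genotype was not tested, and its GOX1 level lay between those of the other two. Without it the GOX2 difference was -6.27 (adjusted p = 2.23e-06). The call ended with only the 6 high light libraries in the fit and when any of 9 other single libraries was left out, which were cat2 gox1 high light replicates 1, 2 and 3, cat2 gox2 high light replicates 1 and 3, and replicates 1 and 2 of each line under high CO2 (-3.75 to -3.11, adjusted p = 0.0531 to 0.0836). CAT2 (AT4G35090), whose mutation the lines share, had 46.3, 44 and 45.8 CPM in cat2 gox2, against 48.3, 61.8 and 56.6 CPM in cat2 gox1. That difference did not pass (log2 difference -0.29, SE 0.11, adjusted p = 0.154). GOX1 and GOX2 are neighbours with closely similar sequences, and the sources used here do not say how reads that align to both were counted, so their levels may include each other's reads.

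**Figure D1:**
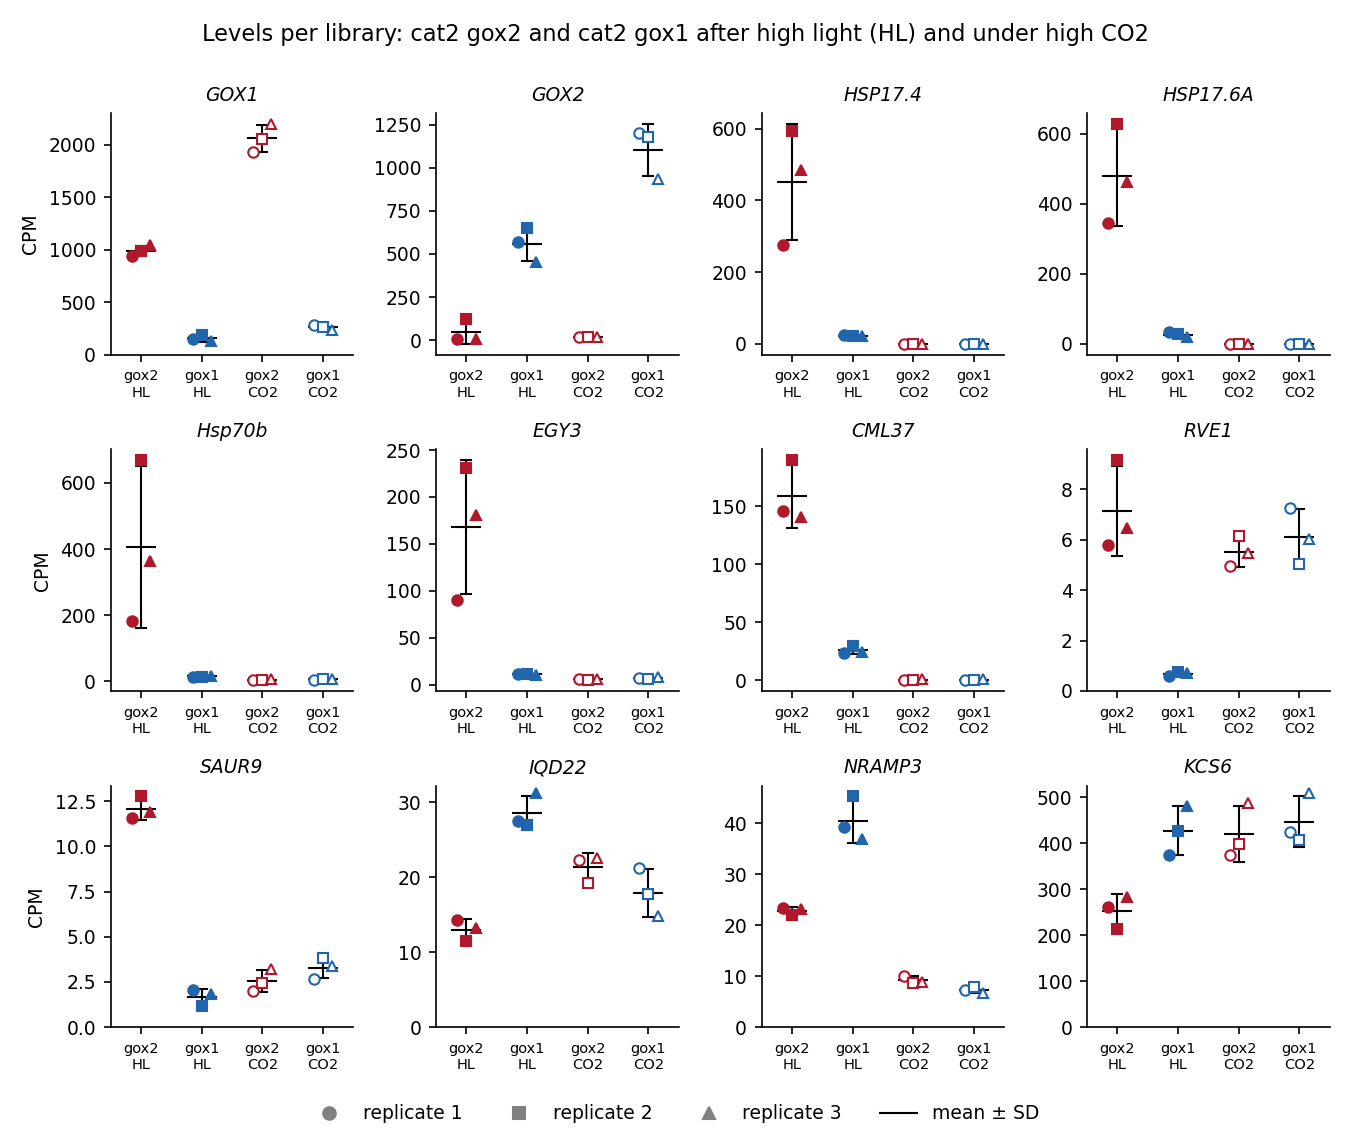
CPM in each library for 12 named genes, with the 3 libraries of cat2 gox2 and of cat2 gox1 after high light, then those of cat2 gox2 and of cat2 gox1 under high CO2. Points are replicates and bars are mean ± SD. For every gene shown the cat2 gox2 and cat2 gox1 points after high light do not overlap, and for GOX2 replicate 2 of cat2 gox2 stands at 122 CPM, above the 7.48 and 6.98 CPM of the others.

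After high light 1000 genes were higher in cat2 gox2, which is 5.27% of those tested, and 243 were lower, which is 1.28%. The 3 cat2 gox2 libraries did not overlap the 3 cat2 gox1 libraries in any of these 1243 genes. Over all genes tested the lines did not overlap in 2995 genes that were higher in cat2 gox2 (15.8%) and in 2307 that were lower (12.2%). Among the higher genes 461 differed at least 2-fold, 114 at least 4-fold and 35 at least 8-fold. Among the lower genes 38 differed at least 2-fold, 5 at least 4-fold and 1 at least 8-fold, which was GOX2. The median log2 difference was 0.95 in the higher genes and -0.69 in the lower genes, against -0.01 over all genes tested. Higher genes made up 80.5% of the calls, and 64.2% (625 higher, 349 lower) when libraries were scaled by their totals alone, which moved the median of all genes by -0.13. These are bulk leaf samples, so fewer cells of a type and less RNA per cell cannot be told apart.

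The number of calls depended on single libraries. Without cat2 gox2 replicate 2, 695 genes were higher and 81 lower, and 675 and 70 of these were among the original calls. Without cat2 gox2 replicate 3 there were 634 higher and 93 lower, without cat2 gox1 replicate 1 there were 629 and 128, and without cat2 gox1 replicate 3 there were 607 and 114. Among the 1000 higher genes, replicate 2 was the highest of the cat2 gox2 libraries in 443, against 280 for replicate 1 and 277 for replicate 3. Among the 243 lower genes it was the lowest in 114, against 49 and 80. Medians of gene lists given here as log2 differences were also moved by single libraries: of 43 lists, 20 had a median that changed sign under some alternative, and none of those 20 medians was larger in size than 0.271.

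**Figure D2:**
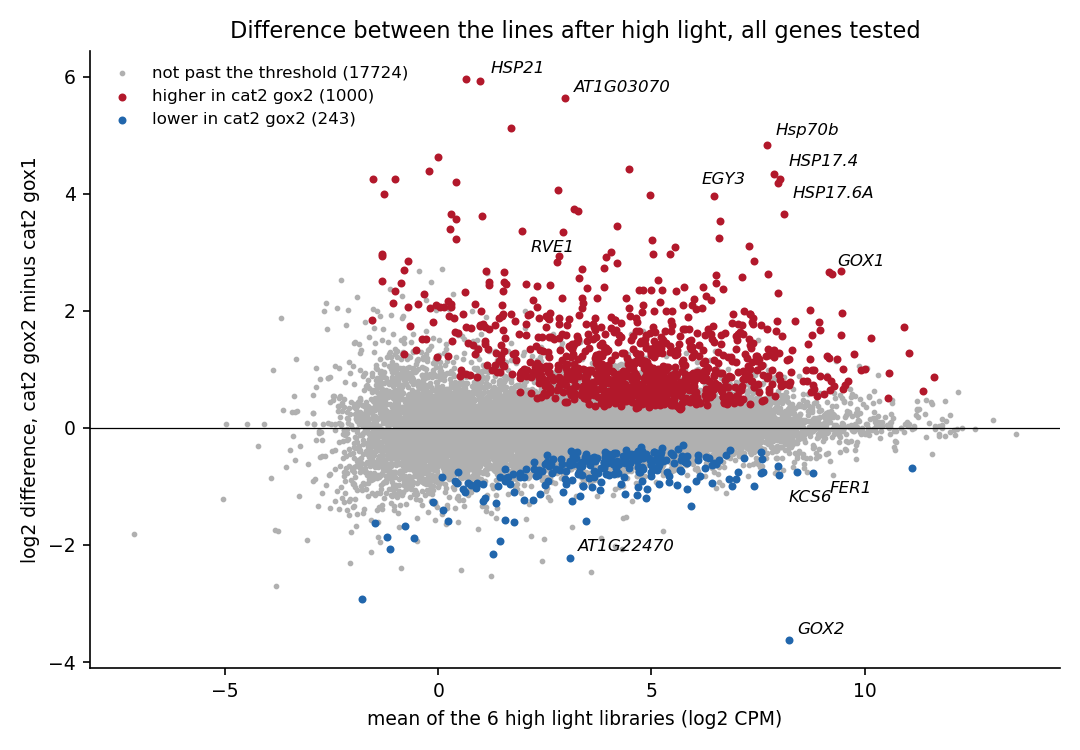
Log2 of the mean CPM over the 6 high light libraries (horizontal) against the log2 difference of cat2 gox2 over cat2 gox1 after high light (vertical) for the 18967 genes tested. The 1000 genes higher in cat2 gox2 and the 243 lower ones are coloured, 17724 did not pass, and the largest differences lie above 0.

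Heat shock proteins were prominent among the rises. Of the 10 largest rises in genes averaging 5 CPM or more, 3 were small heat shock proteins and 2 were members of the HSP70 family. Small heat shock proteins hold unfolding proteins in a state from which HSP70 and HSP101 can refold them. Of 12 cytosolic small heat shock proteins, 10 were higher in cat2 gox2 (83.3%, against 5.27% of all genes tested) and none lower. Their median log2 difference was 3.06. Without cat2 gox2 replicate 2, which was the highest library in 9 of the 10, 9 were higher with a median of 2.84. Their summed level was 3616, 5734 and 4954 CPM in cat2 gox2, against 732, 857 and 676 CPM in cat2 gox1.

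HSP17.4 (AT3G46230), of cytosolic class I, had 275, 592 and 485 CPM in cat2 gox2, against 25, 21.3 and 20.6 CPM in cat2 gox1. The cat2 gox2 libraries were all far above those of cat2 gox1, which lay close together (log2 difference 4.34, SE 0.479, adjusted p = 0.000364). AT1G53540, a further class I protein, had 302, 681 and 495 CPM in cat2 gox2, against 30.8, 26.54 and 19.8 CPM in cat2 gox1, again without overlap (log2 difference 4.26, SE 0.432, adjusted p = 0.000222). HSP17.6A (AT5G12030), of class II, had 345, 627 and 464 CPM in cat2 gox2, against 32.5, 27.1 and 19.5 CPM in cat2 gox1. In each of these genes replicate 2 was the highest and replicate 1 the lowest of the cat2 gox2 libraries (log2 difference 4.18, SE 0.296, adjusted p = 2.25e-05). Small heat shock protein genes resemble each other, so part of their reads may have been counted on a related gene.

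The 250 bases upstream of the RefSeq gene start of 3 of these genes and of Hsp70b, described next, show how unlike the upstream regions of strongly raised chaperone genes were in heat shock element pairs. A pair is GAANNTTC or TTCNNGAA, the core of the site that heat shock factors bind, and pairs are in capitals. The sequences are from TAIR10.1, 5′ to 3′ on the gene's strand.
HSP17.4 (chr3:16984868-16985117, minus strand): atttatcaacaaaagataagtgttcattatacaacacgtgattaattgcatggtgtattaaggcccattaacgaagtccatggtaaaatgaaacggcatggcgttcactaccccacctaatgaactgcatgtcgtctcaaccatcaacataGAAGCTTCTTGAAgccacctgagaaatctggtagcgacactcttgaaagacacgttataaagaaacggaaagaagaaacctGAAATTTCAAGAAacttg
AT1G53540 (chr1:19980049-19980298, plus strand): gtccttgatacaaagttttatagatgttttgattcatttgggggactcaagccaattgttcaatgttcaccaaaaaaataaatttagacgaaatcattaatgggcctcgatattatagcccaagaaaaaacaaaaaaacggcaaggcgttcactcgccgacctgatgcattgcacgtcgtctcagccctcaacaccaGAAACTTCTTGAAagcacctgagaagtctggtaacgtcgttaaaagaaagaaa
HSP17.6A (chr5:3884839-3885088, minus strand): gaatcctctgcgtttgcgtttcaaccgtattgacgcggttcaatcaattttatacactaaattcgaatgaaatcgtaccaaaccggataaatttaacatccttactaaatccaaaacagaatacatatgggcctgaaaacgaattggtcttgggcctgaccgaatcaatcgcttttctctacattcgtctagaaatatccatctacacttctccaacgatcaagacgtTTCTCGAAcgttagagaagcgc
Hsp70b (chr1:5504536-5504785, minus strand): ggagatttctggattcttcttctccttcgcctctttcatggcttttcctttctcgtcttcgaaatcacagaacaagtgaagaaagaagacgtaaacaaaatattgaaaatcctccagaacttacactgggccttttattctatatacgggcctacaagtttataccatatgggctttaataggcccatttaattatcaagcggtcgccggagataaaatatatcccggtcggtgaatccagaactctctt
The upstream sequence of HSP17.4 held 4 pairs and that of AT1G53540 held 2, and in both genes pairs overlapped into a triple, in which GAA, TTC and GAA follow each other with 2 bases between them. HSP17.6A held 1 pair and Hsp70b held 0.

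Over windows of 250 bases before to 50 after the gene start, searched on both strands, 24.9% of the 1000 higher genes and 12.8% of the 242 lower genes with a window held a pair, against 19.3% of 18953 genes tested. Among the 114 genes at least 4-fold higher, 35 held one (30.7%), as did 5 of the 12 cytosolic small heat shock proteins. That triple, or its counterpart that starts and ends with TTC, occurred in 1.8% of the higher and 0.413% of the lower genes, against 0.565% of all. The W-box TTGACC or TTGACT, the core that WRKY factors bind, occurred in 46.5% of the higher genes and 57 of the 242 lower genes, against 32.6% of all. The G-box CACGTG occurred in 11.2% of the higher and 7.02% of the lower genes, against 8.94% of all, and the GCC-box GCCGCC in 2.9% and 2.48%, against 2.73%. A match of letters is a description and not a measured binding site, and these shares were not tested.

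Small heat shock proteins of organelles were also higher, in 3 of the 4 genes tested (75.0%, against 5.27% of all genes tested). A 5th did not pass the filter on low counts. The median of the list was 3.73, and 3.16 without cat2 gox2 replicate 2. HSP21 (AT4G27670), which protects chloroplast proteins, had 0.615, 7.71 and 3.33 CPM in cat2 gox2, against 0.043, 0.0461 and 0.0843 CPM in cat2 gox1. The cat2 gox1 libraries held only 1 or 2 counts each and the cat2 gox2 libraries differed widely (log2 difference 5.93, SE 1.09, adjusted p = 0.0121). The call ended without cat2 gox1 replicate 1 or 3 (log2 5.76 to 6.27, adjusted p = 0.0557 to 0.0604). AT1G52560, a small heat shock protein of the same low level, had 0.512, 3.93 and 1.34 CPM in cat2 gox2, against 0.043, 0.0461 and 0.126 CPM in cat2 gox1 (log2 difference 4.62, SE 0.847, adjusted p = 0.00760). Both genes dropped out under a filter of 5 CPM in 3 libraries, which left 1 gene of this list higher, HSP23.6-MITO (AT4G25200), a mitochondrial protein that is outside the rule for named genes and was chosen after its values were seen. It had 210.5, 346 and 341 CPM in cat2 gox2, against 40.6, 40.7 and 43.6 CPM in cat2 gox1 (log2 difference 2.85, SE 0.289, adjusted p = 0.000222).

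Of 30 genes of the HSP70, HSP90 and HSP100 families and their co-chaperones, 11 were higher (36.7%) and none lower. The share higher among all genes tested was 5.27%. This list had a median of 0.40, and the same number were higher without cat2 gox2 replicate 2. Hsp70b (AT1G16030), a heat-inducible cytosolic HSP70, had 182, 668 and 365 CPM in cat2 gox2, against 12.55, 13.3 and 16.8 CPM in cat2 gox1. The lowest cat2 gox2 library was still far above the highest cat2 gox1 library (log2 difference 4.83, SE 0.422, adjusted p = 8.87e-05). HSA32 (AT4G21320), known for prolonging acquired heat tolerance, had 6.76, 22.8 and 11.8 CPM in cat2 gox2, against 1.59, 1.38 and 1.1 CPM in cat2 gox1 (log2 difference 3.34, SE 0.474, adjusted p = 0.00175). HSP70T-2 (AT2G32120), a truncated HSP70, is not among the 30 and is named for its large rise. It had 29.9, 90.37 and 57 CPM in cat2 gox2, against 3.61, 3.46 and 4.09 CPM in cat2 gox1, with cat2 gox2 replicate 2 again the highest (log2 difference 3.99, SE 0.358, adjusted p = 9.99e-05). Further members of the 30 singled out after their values were seen were the disaggregase HSP101 (log2 difference 2.69, adjusted p = 2.25e-05), the co-chaperone BAG6 (log2 difference 2.58, adjusted p = 2.25e-05) and the coactivator MBF1C (log2 difference 2.3, adjusted p = 2.65e-05). HSP101 had 1087, 1454 and 1084 CPM in cat2 gox2, against 170.0, 233 and 159.7 CPM in cat2 gox1, and its groups did not overlap.

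**Figure D3:**
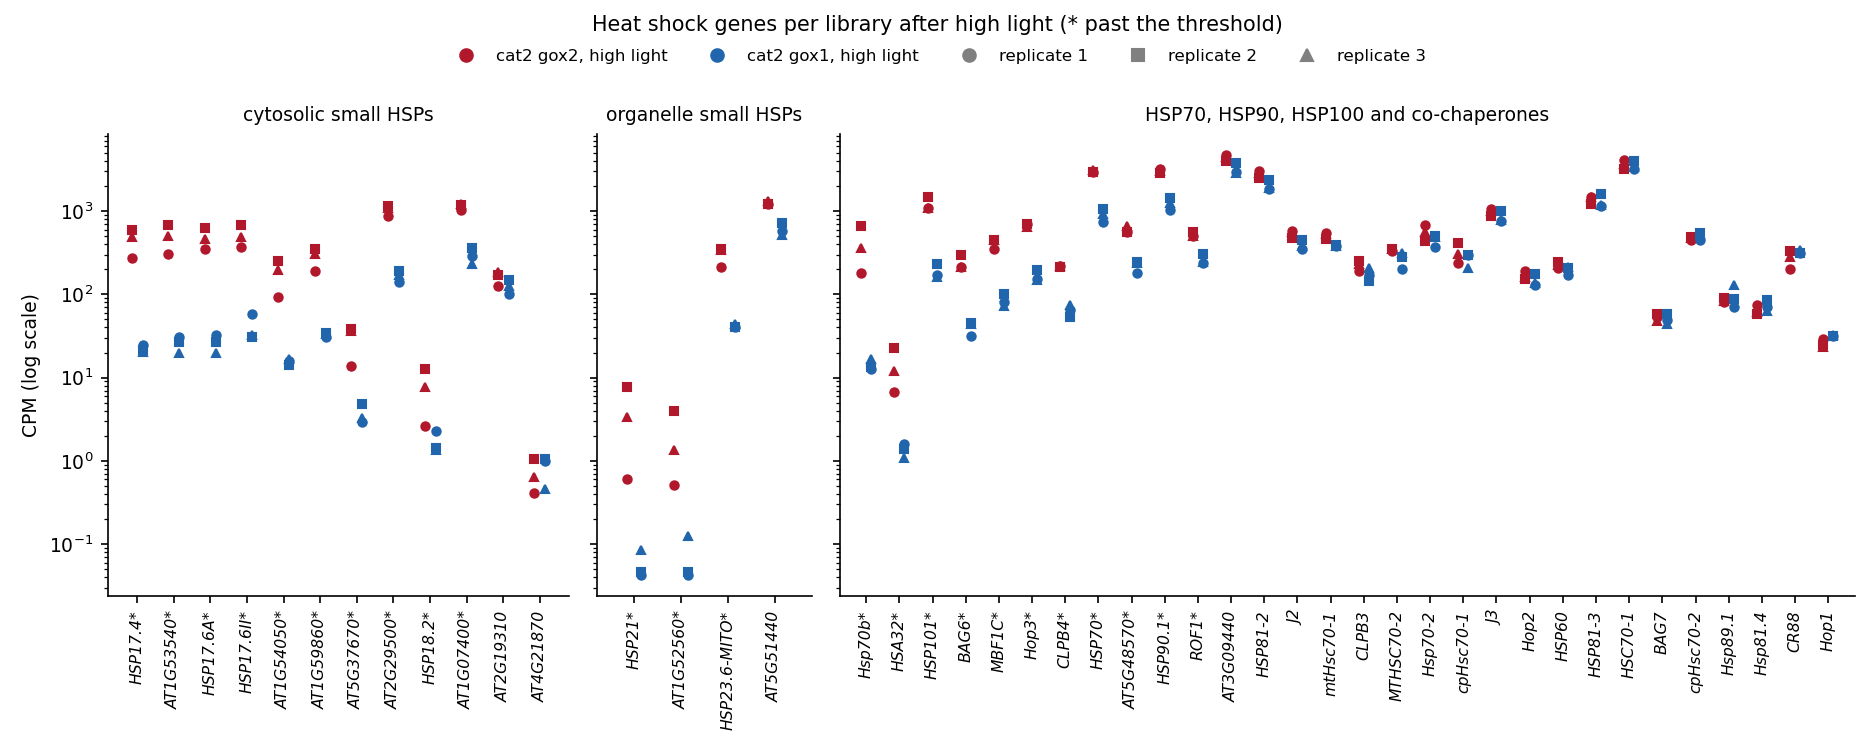
CPM on a log axis for each gene of 3 chaperone lists, cytosolic small heat shock proteins, organelle small heat shock proteins, and HSP70, HSP90, HSP100 with co-chaperones, in the 3 cat2 gox2 and 3 cat2 gox1 libraries after high light. An asterisk marks a gene past the threshold, 10 of 12, 3 of 4 and 11 of 30 genes in the lists.

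Heat shock factors bind the elements above, and DREB2 factors act with them in heat and drought. Of 17 such genes tested, 6 were higher (35.3%, against 5.27% of all genes tested) and none lower, with a median of 0.62. DREB2A (AT5G05410), which activates HSFA3, had 178, 308 and 209.8 CPM in cat2 gox2, against 52, 77.3 and 45 CPM in cat2 gox1 without overlap (log2 difference 2.00, SE 0.259, adjusted p = 0.00102). HSFA3 (AT5G03720) had 18.4, 61 and 27.4 CPM in cat2 gox2, against 11.4, 8.25 and 8.72 CPM in cat2 gox1 (log2 difference 1.91, SE 0.398, adjusted p = 0.0148). Its highest library was again cat2 gox2 replicate 2, and its call ended without cat2 gox1 replicate 2 or 3 (log2 1.82 to 1.86, adjusted p = 0.0553 to 0.0679). HSFA2, which sustains the heat response and was singled out after its values were seen, had 279, 298 and 278 CPM in cat2 gox2, against 103, 197 and 131 CPM in cat2 gox1, and its difference did not pass (log2 difference 0.99, SE 0.278, adjusted p = 0.0596).

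The largest of all rises past the threshold in genes averaging 5 CPM or more lay outside the chaperones. This was AT1G03070, of the Bax inhibitor-1 family of membrane proteins known to restrain cell death. It had 7.94, 25.1 and 13.4 CPM in cat2 gox2, against 0.344, 0.276 and 0.295 CPM in cat2 gox1. The cat2 gox1 libraries lay together at a low level, well below all cat2 gox2 libraries (log2 difference 5.64, SE 0.502, adjusted p = 9.42e-05). AT1G22810, an AP2/ERF-type DNA-binding protein, had 29, 59.1 and 39.1 CPM in cat2 gox2, against 2.32, 1.15 and 2.4 CPM in cat2 gox1 (log2 difference 4.43, SE 0.369, adjusted p = 0.000214). EGY3 (AT1G17870), a chloroplast homologue of the EGY proteases, had 90.21, 231 and 181 CPM in cat2 gox2, against 10.9, 10.7 and 10.6 CPM in cat2 gox1, and the cat2 gox1 libraries were almost equal (log2 difference 3.96, SE 0.307, adjusted p = 4.25e-05). AT1G72660, a P-loop nucleoside triphosphate hydrolase, had 11.4, 21.8 and 17.5 CPM in cat2 gox2, against 1.12, 1.75 and 0.927 CPM in cat2 gox1 (log2 difference 3.74, SE 0.389, adjusted p = 0.000250). AT5G05220, for which no function is given here, had 5.43, 26.1 and 8.52 CPM in cat2 gox2, against 1.55, 0.276 and 0.548 CPM in cat2 gox1 (log2 difference 4.06, SE 0.724, adjusted p = 0.0104). Its call ended without cat2 gox1 replicate 3 (log2 3.85, adjusted p = 0.0564).

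Markers of hydrogen peroxide and mitochondrial stress were higher in 9 of 23 genes (39.1%, against 5.27% of all genes tested) and lower in none, with a median of 0.80. In 16 the lines did not overlap, against 15.8% of all genes tested that were higher without overlap. All 23 differences were positive. The list holds genes known to respond to hydrogen peroxide or to blocked mitochondrial respiration, such as alternative oxidase, glutathione transferases and zinc finger factors. Its summed level was 10093, 7914 and 10111 CPM in cat2 gox2, against 5405, 5944 and 4518 CPM in cat2 gox1. Fewer members passed without single libraries: 4 without cat2 gox1 replicate 1 or 3 or cat2 gox2 replicate 1, 5 without cat2 gox2 replicate 3 and 6, with a median of 0.91, without cat2 gox2 replicate 2. With only the 6 high light libraries in the fit 14 passed.

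SRO5 (AT5G62520), a regulator of salt and oxidative stress responses, had 36.8, 84.8 and 52.9 CPM in cat2 gox2, against 7.86, 8.39 and 6.11 CPM in cat2 gox1, with no overlap (log2 difference 2.96, SE 0.30, adjusted p = 0.000222). GSTU25 (AT1G17180), a tau class glutathione transferase, had 284, 202 and 277 CPM in cat2 gox2, against 92.1, 53.7 and 51.2 CPM in cat2 gox1 (log2 difference 1.95, SE 0.318, adjusted p = 0.00397). Here replicate 2 was the lowest of the cat2 gox2 libraries, unlike in the heat shock genes. The factor NAC13, a regulator of mitochondrial stress genes singled out after its values were seen, had 245, 246 and 253 CPM in cat2 gox2, against 121, 107 and 90.11 CPM in cat2 gox1 (log2 difference 1.23, SE 0.146, adjusted p = 0.000594). AOX1A, the alternative oxidase most used as a marker of mitochondrial stress, had 1016, 921 and 1055 CPM in cat2 gox2, against 637, 623 and 635 CPM in cat2 gox1, likewise chosen afterwards, and did not pass (log2 difference 0.66, SE 0.328, adjusted p = 0.299). The mitochondrial dysfunction motif, which NAC factors of this pathway bind, occurred in the windows of 3.1% of the 1000 higher genes. Its share was 1.65% of the lower genes and 1.09% of all genes tested. In the list 8 of the 23 genes held it (34.8%), but the list was chosen for known genes of this pathway, so that share is not an independent result. These shares were not tested.

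**Figure D4:**
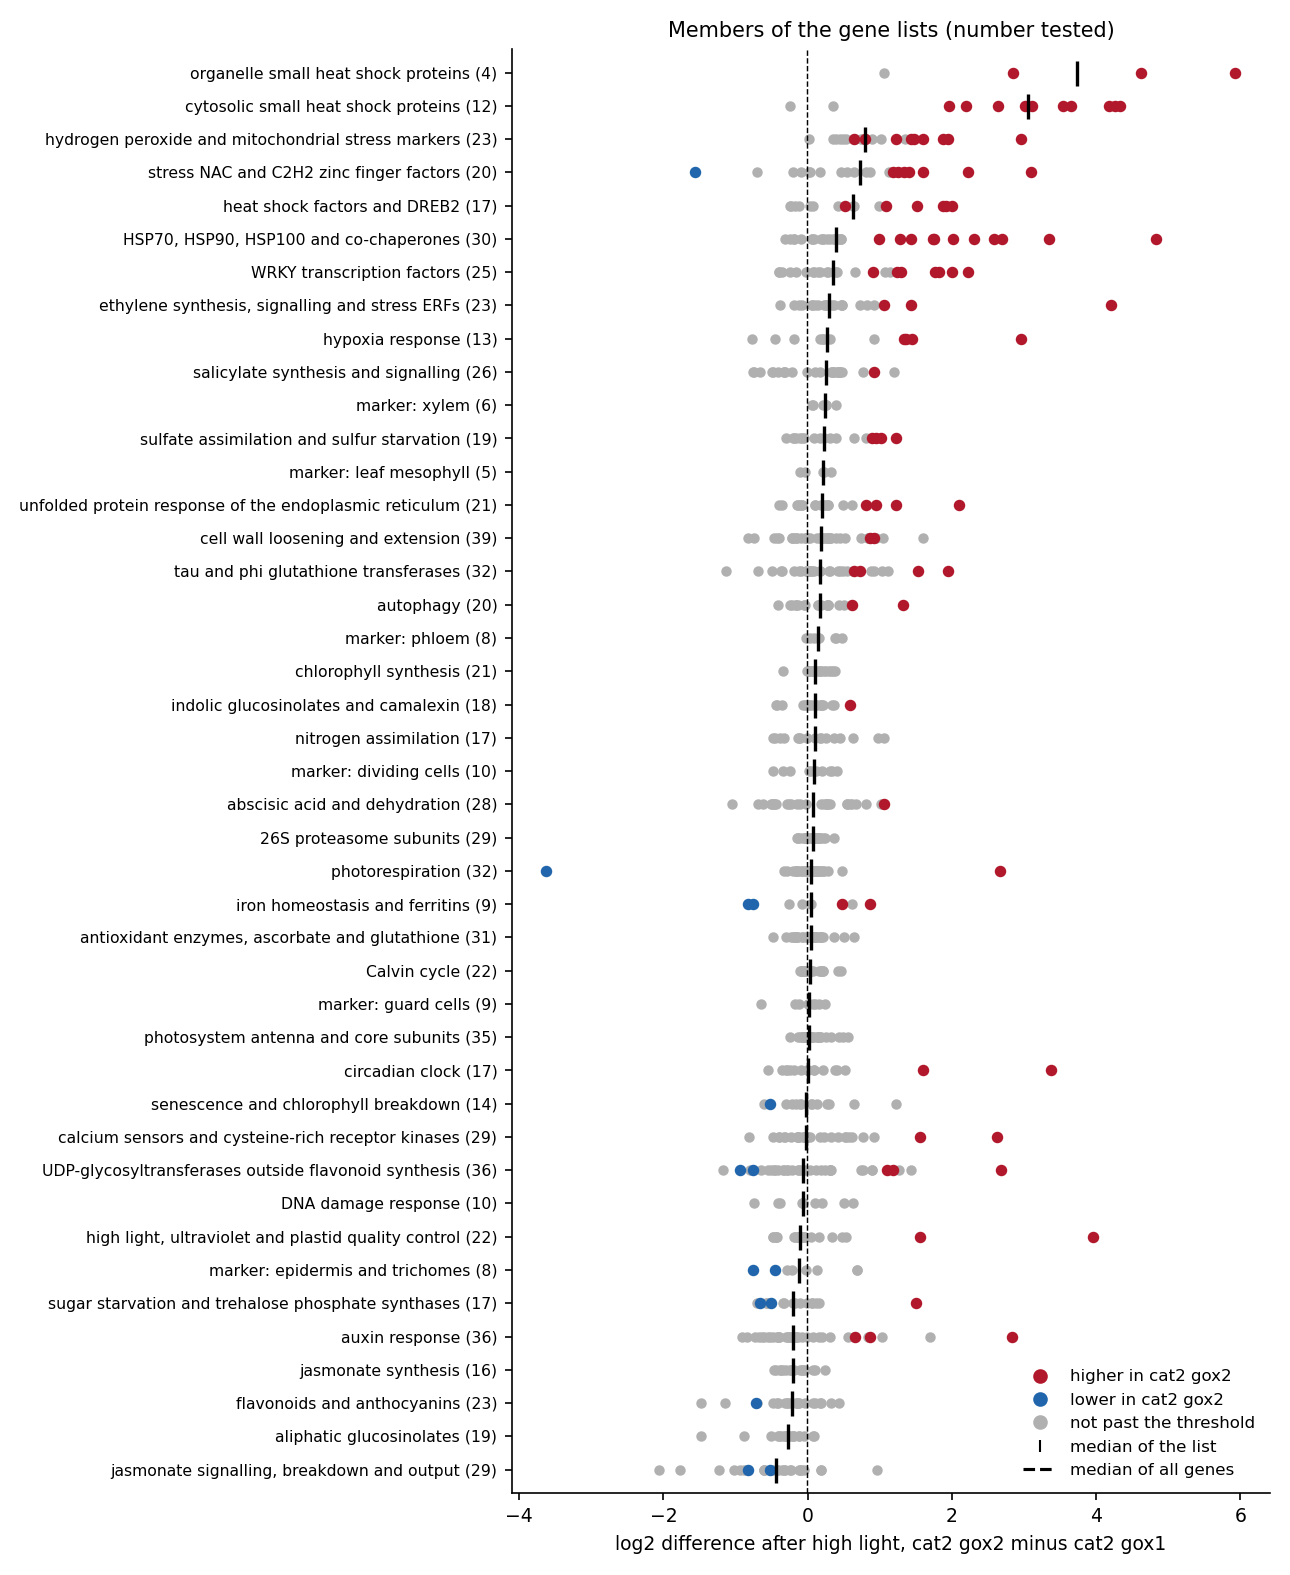
Log2 difference of cat2 gox2 over cat2 gox1 after high light for every tested member of the gene lists, ordered by the list median. Organelle and cytosolic small heat shock proteins have the highest medians, 3.73 and 3.06, followed by a wide gap to the hydrogen peroxide and mitochondrial stress markers at 0.80 and the stress NAC and C2H2 factors at 0.72 among lists of at least 4 tested members.

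Of 25 WRKY factors, which bind the W-box and regulate defence, 7 were higher (28.0%, against 5.27% of all genes tested) and none lower (median 0.35). WRKY22 (AT4G01250) had 11.3, 15.6 and 9.82 CPM in cat2 gox2, against 2.36, 2.53 and 2.95 CPM in cat2 gox1 (log2 difference 2.22, SE 0.237, adjusted p = 0.000296). WRKY48 (AT5G49520) had 64, 88.7 and 63.4 CPM in cat2 gox2, against 17.7, 19.3 and 17.1 CPM in cat2 gox1, and in both genes the lines were clearly apart (log2 difference 2.00, SE 0.29, adjusted p = 0.00200). WRKY33, a central regulator of defence against necrotrophs, was chosen after its values were seen and had 959, 794 and 916 CPM in cat2 gox2, against 355, 425 and 428 CPM in cat2 gox1, and did not pass although the groups did not overlap (log2 difference 1.14, SE 0.316, adjusted p = 0.0558).

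Of 20 stress NAC and C2H2 zinc finger factors, 7 were higher (35.0%) and 1 lower (5.0%), with a median of 0.72. Of all genes tested 5.27% were higher and 1.28% lower. The number higher was 3 without cat2 gox1 replicate 1 or 3 or without cat2 gox2 replicate 3, 4 without cat2 gox2 replicate 1, and 5 without cat2 gox2 replicate 2. AT3G46080, a C2H2 zinc finger protein, had 77.9, 98.7 and 77.7 CPM in cat2 gox2, against 12.8, 13.6 and 3.33 CPM in cat2 gox1 (log2 difference 3.1, SE 0.421, adjusted p = 0.00130). Its neighbour ZAT7 (AT3G46090), a repressor of similar sequence, had 11.5, 25.5 and 14 CPM in cat2 gox2, against 4.51, 4.15 and 2.32 CPM in cat2 gox1 (log2 difference 2.22, SE 0.344, adjusted p = 0.00292), and reads of these neighbours may not have been fully separated. The member that was lower was NAC044 (AT3G01600), known from the DNA damage response. It had 1.84, 1.48 and 1.14 CPM in cat2 gox2, against 5.97, 5.12 and 2.11 CPM in cat2 gox1, and its call ended with only the 6 libraries in the fit and without any of 8 single libraries, each high light library other than cat2 gox1 replicate 3 and, under high CO2, replicate 1 of cat2 gox1 and replicates 1 and 2 of cat2 gox2 (log2 -1.75 to -1.28, adjusted p = 0.0639 to 0.166, against log2 difference -1.57, adjusted p = 0.0448 with all). None of 10 DNA damage genes passed.

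Calcium sensors were represented by CML37 and CML38, the only ones to pass of 29 calcium sensors and cysteine-rich receptor kinases, which is 6.90% of the list and near the 5.27% of all genes tested. The median of the list was -0.03, and -0.19 to 0.35 without 1 library. CML37 (AT5G42380), a calmodulin-like protein linked to jasmonate and drought signalling, had 146, 189.7 and 141 CPM in cat2 gox2, against 23.8, 29.2 and 24.6 CPM in cat2 gox1. The cat2 gox2 libraries were all well above cat2 gox1, with little spread in either line (log2 difference 2.62, SE 0.241, adjusted p = 0.000116). CML38 (AT1G76650), a calmodulin-like protein of hypoxic cells, had 50.2, 65.1 and 53.4 CPM in cat2 gox2, against 19.6, 21.9 and 16 CPM in cat2 gox1 (log2 difference 1.55, SE 0.241, adjusted p = 0.00292). Without cat2 gox1 replicate 2, 4 members of the list were higher. Of 13 genes of the hypoxia response, 4 were higher (30.8%, against 5.27% of all genes tested) and none lower (median 0.26). Among the higher ones were SRO5, given above, and ERF71 (AT2G47520), a transcription factor stabilised at low oxygen. ERF71 had 69.8, 50.2 and 57.7 CPM in cat2 gox2, against 27.5, 22.4 and 15.2 CPM in cat2 gox1 (log2 difference 1.45, SE 0.211, adjusted p = 0.00201).

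Genes of the unfolded protein response in the endoplasmic reticulum were higher in 4 of 21 cases and lower in none (median 0.19). That is 19.0% higher, against 5.27% of all genes tested. ATERDJ3A (AT3G08970), a DnaJ co-chaperone of that compartment also needed for heat tolerance of pollen tubes, had 94.8, 114 and 93.9 CPM in cat2 gox2, against 22.2, 22.9 and 25.4 CPM in cat2 gox1, and both lines were tight (log2 difference 2.1, SE 0.261, adjusted p = 0.000769). BI1 (AT5G47120), a Bax inhibitor, had 285, 342 and 362 CPM in cat2 gox2, against 132, 140.2 and 152 CPM in cat2 gox1, and its call ended with scaling by library totals alone and without any one of the 6 high light libraries (log2 1.15 to 1.31, adjusted p = 0.0520 to 0.107, against log2 difference 1.22, adjusted p = 0.0300 with all). The number of higher members was 1 without cat2 gox1 replicate 1 or 3 or with scaling by library totals alone, and 2 without any one of the other high light libraries. Of 29 proteasome subunits none passed. Of 20 autophagy genes 2 were higher, against 5.27% of all genes tested. The number was 1 when any 1 high light library other than cat2 gox1 replicate 2 was left out. It was also 1 with scaling by library totals alone, and 3 with only the 6 libraries in the fit. ATG8E (AT2G45170), a ubiquitin-like protein of the autophagosome membrane, had 63, 67.4 and 78.3 CPM in cat2 gox2, against 33.1, 32.4 and 17.9 CPM in cat2 gox1 (log2 difference 1.32, SE 0.211, adjusted p = 0.00344). The other, G18F (AT5G54730), had 33.5, 32.7 and 30.9 CPM in cat2 gox2, against 20.7, 23.46 and 19.4 CPM in cat2 gox1. It passed narrowly (log2 difference 0.61, adjusted p = 0.0223), and not without any high light library other than cat2 gox1 replicate 2 (adjusted p up to 0.0936) or with scaling by library totals alone.

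Among detoxifying enzymes only the list of UDP-glycosyltransferases held genes that passed in both directions. Of 32 tau and phi glutathione transferases, which conjugate glutathione to reactive compounds, 4 were higher and none lower (median 0.17). Besides GSTU25, GSTU22 (AT1G78340) had 45.8, 29.4 and 54 CPM in cat2 gox2, against 17.5, 13.7 and 13.6 CPM in cat2 gox1, with cat2 gox2 replicate 2 the lowest of its line (log2 difference 1.53, SE 0.248, adjusted p = 0.00388). Of 36 UDP-glycosyltransferases, which attach sugars to hormones and secondary compounds, 3 were higher (8.33%) and 2 lower (5.56%), with a median of -0.06. Of all genes tested 5.27% were higher and 1.28% lower. When any 1 high light library was left out, 2 members were higher. DOGT1 (AT2G36800), which glycosylates brassinosteroids and the toxin deoxynivalenol, had 769, 749.7 and 888 CPM in cat2 gox2, against 370.1, 393 and 292 CPM in cat2 gox1 (log2 difference 1.19, SE 0.207, adjusted p = 0.00563). UGT84A1 (AT4G15480), which acts on sinapic acid and related compounds, had 3.43, 5.03 and 2.8 CPM in cat2 gox2, against 0.902, 0.184 and 0.632 CPM in cat2 gox1 (log2 difference 2.69, SE 0.438, adjusted p = 0.00396). UGT74D1 (AT2G31750), which acts on auxins, was lower, with 30.2, 24.5 and 33.9 CPM in cat2 gox2, against 50.4, 50.8 and 67.8 CPM in cat2 gox1 (log2 difference -0.93, SE 0.176, adjusted p = 0.00904). UGT76E11 (AT3G46670), a flavonol glycosyltransferase, was lower too, with 98.6, 83.4 and 108 CPM in cat2 gox2, against 155, 184 and 152 CPM in cat2 gox1 (log2 difference -0.76, SE 0.141, adjusted p = 0.00818). Of 31 antioxidant enzymes, including ascorbate peroxidases, superoxide dismutases and glutathione synthesis, none passed in either direction (median 0.04).

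Of 23 genes of ethylene synthesis and signalling, 3 were higher (13.0%, against 5.27% of all genes, median 0.29), and 1 was higher without cat2 gox1 replicate 1 or 3 or cat2 gox2 replicate 1 or 3. ACS7 and ACS2 make the ethylene precursor ACC. ACS7 (AT4G26200) had 2.15, 3.26 and 2.15 CPM in cat2 gox2, against 0.172, 0.0922 and 0.126 CPM in cat2 gox1, a low level at which cat2 gox1 held only a few counts (log2 difference 4.21, SE 0.472, adjusted p = 0.000409). ACS2 (AT1G01480) had 15.1, 11.5 and 11.7 CPM in cat2 gox2, against 4.68, 4.75 and 4.8 CPM in cat2 gox1 (log2 difference 1.43, SE 0.305, adjusted p = 0.0171), and its call ended without any high light library other than cat2 gox2 replicate 2 (log2 1.29 to 1.48, adjusted p = 0.0526 to 0.0762).

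In the salicylate list NPR4 (AT4G19660), a salicylate receptor that represses defence genes, was the 1 of 26 genes to pass (3.85% higher, against 5.27% of all genes tested). It had 47.5, 49.7 and 50.03 CPM in cat2 gox2, against 25.2, 28.2 and 24.7 CPM in cat2 gox1, with very little spread (log2 difference 0.92, SE 0.135, adjusted p = 0.00216). Of 29 genes of jasmonate signalling, breakdown and output 2 were lower (6.90%, against 1.28% of all genes tested) and none higher. The median was -0.44, and 3 of the 29 differences were positive. JAZ3 (AT3G17860), a repressor of jasmonate responses, had 22.8, 25.6 and 27 CPM in cat2 gox2, against 37.1, 37.6 and 33.4 CPM in cat2 gox1 (log2 difference -0.52, SE 0.0943, adjusted p = 0.00729). AIB (AT2G46510), a bHLH factor that counters MYC2, had 14, 13.7 and 16.7 CPM in cat2 gox2, against 24, 34.1 and 20.9 CPM in cat2 gox1 (log2 difference -0.83, SE 0.186, adjusted p = 0.0220). The call of AIB ended without cat2 gox1 replicate 2 or cat2 gox2 replicate 1 or 2 (log2 -0.79 to -0.60, adjusted p = 0.0570 to 0.0862). None of 16 jasmonate synthesis genes passed (median -0.21). In the abscisic acid list CYP707A3 (AT5G45340), which breaks abscisic acid down, was the 1 of 28 to pass (3.57% higher, against 5.27% of all genes tested). It had 8.61, 9.0 and 6.98 CPM in cat2 gox2, against 3.44, 4.47 and 3.92 CPM in cat2 gox1 (log2 difference 1.05, SE 0.215, adjusted p = 0.0134). It did not pass without cat2 gox1 replicate 1 or 3 or cat2 gox2 replicate 2 (log2 0.96 to 1.05, adjusted p = 0.0542 to 0.0646).

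Sulfate assimilation, which supplies cysteine for glutathione, was higher in 4 of 19 genes (21.1%, against 5.27% of all genes tested) and lower in none (median 0.23). APR1 (AT4G04610), which reduces activated sulfate, had 1005, 946 and 952 CPM in cat2 gox2, against 434, 514 and 491 CPM in cat2 gox1, so each cat2 gox2 library held close to the 2.02-fold that the fit gave (log2 difference 1.01, SE 0.168, adjusted p = 0.00442). SERAT2;1 (AT1G55920), which makes the precursor of cysteine in plastids, had 735, 794 and 805 CPM in cat2 gox2, against 309, 457 and 234 CPM in cat2 gox1, with more spread among the cat2 gox1 libraries (log2 difference 1.22, SE 0.21, adjusted p = 0.00528). Genes of glucosinolates, sulfur-rich defence compounds, mostly did not pass: none of 19 genes of the aliphatic branch passed (median -0.27, and 0.03 without cat2 gox1 replicate 1, -0.49 without cat2 gox2 replicate 1 or -0.54, with 1 gene lower, without cat2 gox1 replicate 2). Of 18 genes of the indolic branch and camalexin only AT2G44490, a myrosinase that cleaves indolic glucosinolates, passed (5.56% higher, against 5.27% of all genes tested). It had 625, 619 and 656 CPM in cat2 gox2, against 354, 491 and 422 CPM in cat2 gox1, and its call (log2 difference 0.58, adjusted p = 0.0263) ended without any high light library other than cat2 gox1 replicate 2, with scaling by library totals alone, and with only the 6 libraries in the fit (adjusted p up to 0.121).

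Iron genes changed both ways, 2 higher and 2 lower of 9 tested (22.2% each). Of all genes tested 5.27% were higher and 1.28% lower. FER1 (AT5G01600), a ferritin that stores iron in plastids, was lower, with 391, 274 and 319 CPM in cat2 gox2, against 585, 577 and 508 CPM in cat2 gox1 (log2 difference -0.76, SE 0.146, adjusted p = 0.00968). NRAMP3 (AT2G23150), which exports iron from the vacuole, was lower as well, with 23.3, 22.1 and 23.2 CPM in cat2 gox2, against 39.2, 45.4 and 36.9 CPM in cat2 gox1, and the 3 cat2 gox2 libraries were nearly equal (log2 difference -0.83, SE 0.11, adjusted p = 0.00120). PYE (AT3G47640), a bHLH factor of the iron deficiency response, was higher, with 18.8, 16.6 and 17.2 CPM in cat2 gox2, against 10.4, 9.4 and 9.06 CPM in cat2 gox1 (log2 difference 0.86, SE 0.174, adjusted p = 0.0123), but not without cat2 gox1 replicate 3 (adjusted p = 0.0572) or with scaling by library totals alone (adjusted p = 0.0606). BTS (AT3G18290), an E3 ligase that restrains that response, had 259, 220.5 and 222 CPM in cat2 gox2, against 171, 188 and 145 CPM in cat2 gox1 and only just passed (log2 difference 0.48, adjusted p = 0.0480). Leaving out any 1 library other than cat2 gox1 replicate 2 after high light or replicate 3 under high CO2 ended its call (adjusted p = 0.0534 to 0.170), as did scaling by library totals alone, no filter on low counts and only the 6 libraries in the fit.

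Of 17 clock genes 2 were higher (11.8%, against 5.27% of all genes tested), both of the REVEILLE family of Myb-like factors. RVE1 (AT5G17300), which links the clock to auxin levels, had 5.79, 9.14 and 6.45 CPM in cat2 gox2, against 0.602, 0.737 and 0.716 CPM in cat2 gox1. All cat2 gox2 libraries were far above all cat2 gox1 libraries (log2 difference 3.37, SE 0.236, adjusted p = 2.25e-05). Under high CO2 RVE1 had 4.94, 6.15 and 5.45 CPM in cat2 gox2, against 7.24, 5.03 and 6.03 CPM in cat2 gox1, so there the lines overlapped. RVE2 (AT5G37260) had 5.74, 7.18 and 5.8 CPM in cat2 gox2, against 2.11, 2.49 and 1.6 CPM in cat2 gox1 (log2 difference 1.59, SE 0.202, adjusted p = 0.000862). The core clock genes LHY (log2 difference 0.38, adjusted p = 0.368) and CCA1 (log2 difference 0.52, adjusted p = 0.147), named after their values were seen because they are close relatives of RVE1, did not pass, and the median of the list was 0.00.

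Of 36 auxin response genes 3 were higher (8.33%, against 5.27% of all genes tested) and none lower, with a median of -0.21. SAUR9 (AT4G36110), a small auxin-induced protein of cell expansion, had 11.6, 12.8 and 11.9 CPM in cat2 gox2, against 2.06, 1.2 and 1.81 CPM in cat2 gox1, tight in both lines (log2 difference 2.83, SE 0.229, adjusted p = 5.65e-05). DFL1 (AT5G54510), a GH3 enzyme that conjugates auxin to amino acids, had 7.94, 11.3 and 8.24 CPM in cat2 gox2, against 4.81, 5.02 and 5.27 CPM in cat2 gox1 (log2 difference 0.86, adjusted p = 0.0409). Its call ended when any 1 of 8 libraries was left out, namely any high light library, cat2 gox1 high CO2 replicate 2 or cat2 gox2 high CO2 replicate 1, and with scaling by library totals alone (adjusted p up to 0.153). Of 39 genes of cell wall loosening 2 were higher, which is 5.13% and about the share of all genes tested, and the number was 1 without cat2 gox1 replicate 2 or 3, without cat2 gox2 replicate 1 or 2, or with scaling by library totals alone, and 4 without cat2 gox1 replicate 1. EXPA4 (AT2G39700), an expansin, had 24.4, 29.1 and 21 CPM in cat2 gox2, against 15.9, 10.8 and 12.47 CPM in cat2 gox1 (log2 difference 0.93, SE 0.171, adjusted p = 0.00782). EXPA9 (AT5G02260) had 6.66, 7.42 and 6.0 CPM in cat2 gox2, against 4.51, 3.09 and 3.45 CPM in cat2 gox1 (log2 difference 0.86, adjusted p = 0.0322), and did not pass without any high light library other than cat2 gox1 replicate 1 or with scaling by library totals alone (adjusted p up to 0.118).

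Of the trehalose phosphate synthase proteins, regulators of sugar signalling, 3 passed. TPS11 (AT2G18700) was higher, with 187, 221 and 162 CPM in cat2 gox2, against 80.6, 85.7 and 34.2 CPM in cat2 gox1 (log2 difference 1.51, SE 0.342, adjusted p = 0.0233), but not without cat2 gox1 replicate 1 or cat2 gox2 replicate 1 or 2 (log2 1.38 to 1.66, adjusted p = 0.0517 to 0.0797). AT1G60140, of the same family, was lower, with 20.8, 22.1 and 21 CPM in cat2 gox2, against 34.3, 38.8 and 27.8 CPM in cat2 gox1 (log2 difference -0.66, adjusted p = 0.0356), and ATTPS6 (AT1G68020) was lower, with 13.4, 12 and 12.1 CPM in cat2 gox2, against 18.18, 15.8 and 19.3 CPM in cat2 gox1 (log2 difference -0.5, adjusted p = 0.0151). AT1G60140 did not pass without any of 7 single libraries, the high light libraries other than cat2 gox1 replicate 3, cat2 gox1 high CO2 replicate 1 and cat2 gox2 high CO2 replicate 2, or with relative log expression scaling (adjusted p up to 0.114). ATTPS6 did not pass without cat2 gox1 replicate 1 or 3 or cat2 gox2 replicate 2 or 3, or with only the 6 libraries in the fit (adjusted p up to 0.0659). In all, 1 was higher (5.88%, against 5.27% of all genes tested) and 2 were lower (11.8%, against 1.28%) of the 17 genes of sugar starvation and trehalose phosphate synthesis, and none passed without cat2 gox2 replicate 2.

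Falls were fewer and smaller. In genes averaging 5 CPM or more the largest after GOX2 was AT1G22470, a gene with no function given here, which had 3.38, 2.2 and 3.45 CPM in cat2 gox2, against 14.8, 13 and 14.3 CPM in cat2 gox1 (log2 difference -2.22, SE 0.302, adjusted p = 0.00132). TPS03 (AT4G16740), a terpene synthase that makes the volatile ocimene, had 5.07, 5.12 and 6.33 CPM in cat2 gox2, against 15.3, 13.4 and 21.1 CPM in cat2 gox1 (log2 difference -1.59, SE 0.409, adjusted p = 0.0414). Its call ended without any high light library or cat2 gox1 high CO2 replicate 2 (log2 -1.72 to -1.38, adjusted p = 0.0546 to 0.159). AT3G04000, a Rossmann-fold oxidoreductase, had 33.5, 32.9 and 37.2 CPM in cat2 gox2, against 84.8, 107 and 70.2 CPM in cat2 gox1, and the cat2 gox1 libraries spread more than those of cat2 gox2 (log2 difference -1.34, SE 0.224, adjusted p = 0.00465). ATBRXL2 (AT3G14000), a BREVIS RADIX-like protein, had 6.92, 3.69 and 4.99 CPM in cat2 gox2, against 13.9, 12.8 and 10.3 CPM in cat2 gox1 (log2 difference -1.25, SE 0.22, adjusted p = 0.00605). It lies at 4630865-4634081 on chromosome 3, in the region of GOX2 and GOX1, which start at 4818251 and 4821391. Its linkage to them was not tested. IQD22 (AT4G23060), a calmodulin-binding IQ-domain protein, had 14.2, 11.5 and 13.2 CPM in cat2 gox2, against 27.5, 27 and 31.2 CPM in cat2 gox1, with the lines well apart (log2 difference -1.14, SE 0.144, adjusted p = 0.000865). The other 4 of the 10 largest falls at that level were AT4G16870 (log2 difference -1.2, adjusted p = 0.00396), the SCREAM-like AT2G40435 (log2 difference -1.17, adjusted p = 0.00321), AT5G65660 (log2 difference -1.14, adjusted p = 0.00517) and the protein kinase AT5G11020 (log2 difference -1.13, adjusted p = 0.00606). Each of these 4 had its 3 cat2 gox2 libraries below its 3 cat2 gox1 libraries.

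Photosynthesis genes did not separate the lines at the threshold. None of 35 photosystem genes passed (median 0.02), none of 22 Calvin cycle genes (median 0.03) and none of 21 genes of chlorophyll synthesis (median 0.11), and with scaling by library totals alone all 3 medians changed sign. Of 22 genes of high light, ultraviolet and plastid quality control 2 were higher (9.09%, against 5.27% of all genes tested). They were EGY3, given above, and BBX32 (AT3G21150), a B-box protein of light signalling. BBX32 had 18.9, 43.6 and 24.4 CPM in cat2 gox2, against 7.82, 8.85 and 12.8 CPM in cat2 gox1 (log2 difference 1.56, SE 0.314, adjusted p = 0.0124), and did not pass without cat2 gox1 replicate 1 (log2 1.42, adjusted p = 0.0625). Of 32 photorespiration genes GOX1 and GOX2 were the ones that passed (median 0.05). Of 23 flavonoid and anthocyanin genes only MYBL2 (AT1G71030), a repressor of anthocyanin synthesis, passed and was lower (4.35%, against 1.28% of all genes tested). It had 23.56, 26.4 and 28.9 CPM in cat2 gox2, against 43.5, 47.8 and 38.8 CPM in cat2 gox1 (log2 difference -0.72, adjusted p = 0.0266), but did not pass without any high light library other than cat2 gox1 replicate 3 (adjusted p up to 0.0961). The median of that list was -0.22, and single libraries moved it widely: to 0.30 without cat2 gox1 replicate 3, 0.12 without cat2 gox2 replicate 2, -0.59 without cat2 gox1 replicate 2 and -0.83 without cat2 gox2 replicate 3. Of 14 senescence genes only NYC1 (AT4G13250), a chlorophyll b reductase, passed and was lower (7.14%, against 1.28% of all genes tested). It had 114, 117 and 126 CPM in cat2 gox2, against 161, 160.0 and 190.4 CPM in cat2 gox1 (log2 difference -0.51, adjusted p = 0.0168), but did not pass without cat2 gox1 replicate 3 or cat2 gox2 replicate 1 or 2 (adjusted p up to 0.0696). None of 17 nitrogen assimilation genes passed (median 0.10).

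Markers of other cell types were read beside these results. None passed among 9 of guard cells, 8 of phloem, 6 of xylem, 10 of dividing cells and 5 of leaf mesophyll, or among the 2 root and 1 meristem genes tested of 6 each. The mesophyll markers, abundant in every library, summed to 21407, 28383 and 22137 CPM in cat2 gox2, against 27007, 27666 and 16413 CPM in cat2 gox1, so the lines overlapped and cat2 gox1 replicate 3 was the lowest. Of 8 markers of epidermis and trichomes 2 were lower in cat2 gox2 (against 1.28% of all genes tested), both in wax synthesis. KCS6 (AT1G68530), which elongates the fatty acids of waxes, had 262, 212 and 282 CPM in cat2 gox2, against 375, 426 and 481 CPM in cat2 gox1 (log2 difference -0.76, SE 0.162, adjusted p = 0.0171). CER3 (AT5G57800), which acts with CER1 on wax alkanes, had 31.5, 30.9 and 31.4 CPM in cat2 gox2, against 39.1, 43.5 and 45.4 CPM in cat2 gox1 (log2 difference -0.45, adjusted p = 0.0317). The summed markers were 404, 386 and 433 CPM in cat2 gox2, against 553, 588 and 650 CPM in cat2 gox1, and a 9th marker, MYB0, had no count in any library. Without KCS6 the other 7 summed to 142, 174 and 150.5 CPM in cat2 gox2, against 178, 162 and 169 CPM in cat2 gox1, which overlapped. Of the 8 differences 3 were positive, up to 0.69, and the median was -0.12. The part of epidermal cell number in the results above was not tested. KCS6 did not pass without cat2 gox1 replicate 3 or cat2 gox2 replicate 2 (adjusted p = 0.0704 to 0.0729), and CER3 not without any of 7 single libraries, the high light libraries other than cat2 gox1 replicate 1, cat2 gox1 high CO2 replicate 1 and cat2 gox2 high CO2 replicate 2 (adjusted p up to 0.123).

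Under high CO2, before the treatment, the lines differed in 3 genes, 0.0158% of those tested, all higher in cat2 gox2, while 511 genes had an unadjusted p below 0.05 and DESeq2 called 5. GOX2 was not among them, although it had 16.5, 16.8 and 16.8 CPM in cat2 gox2, against 1199, 1179 and 932 CPM in cat2 gox1 without overlap (log2 difference -6.05, adjusted p = 0.307). It passed without cat2 gox2 high light replicate 2, which enters the shared estimate of spread (adjusted p = 4.31e-07), when the model held no high light library (adjusted p = 0.000233) and by DESeq2 (adjusted p = 3.42e-08). GOX1 was the 1st of the 3, with 1936, 2053 and 2197 CPM in cat2 gox2, against 284, 261 and 238 CPM in cat2 gox1 (log2 difference 2.98, adjusted p = 2.16e-05). AT3G29644 had 3.42, 4.13 and 3.83 CPM in cat2 gox2, against 0.673, 0.785 and 1.03 CPM in cat2 gox1 under high CO2 (log2 difference 2.17, adjusted p = 0.0149), and 2.56, 2.82 and 3.49 CPM in cat2 gox2, against 0.902, 0.507 and 0.632 CPM in cat2 gox1 after high light (log2 difference 2.11, SE 0.252, adjusted p = 0.000609). AT3G60170 had 2.26, 3.05 and 2.36 CPM in cat2 gox2, against 0, 0 and 0 CPM in cat2 gox1 under high CO2, where cat2 gox1 had no count. After high light it had 198 counts in the 3 cat2 gox2 libraries together, against 3 in the cat2 gox1 libraries, a ratio of 69.7 after scaling (exact 95% interval 23.51 to 341, counting error only). AT3G60170 (22232512-22236531) and AT3G29644 (11498879-11501424) lie on chromosome 3, as do GOX1 and GOX2, but not beside these, which start at 4821391 and 4818251. Linkage was not tested. A filter of 5 CPM in 3 libraries removed these 2 genes and left GOX1. The genes called after high light had a median log2 difference of 0.02 under high CO2 where higher and -0.09 where lower.

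**Figure D5:**
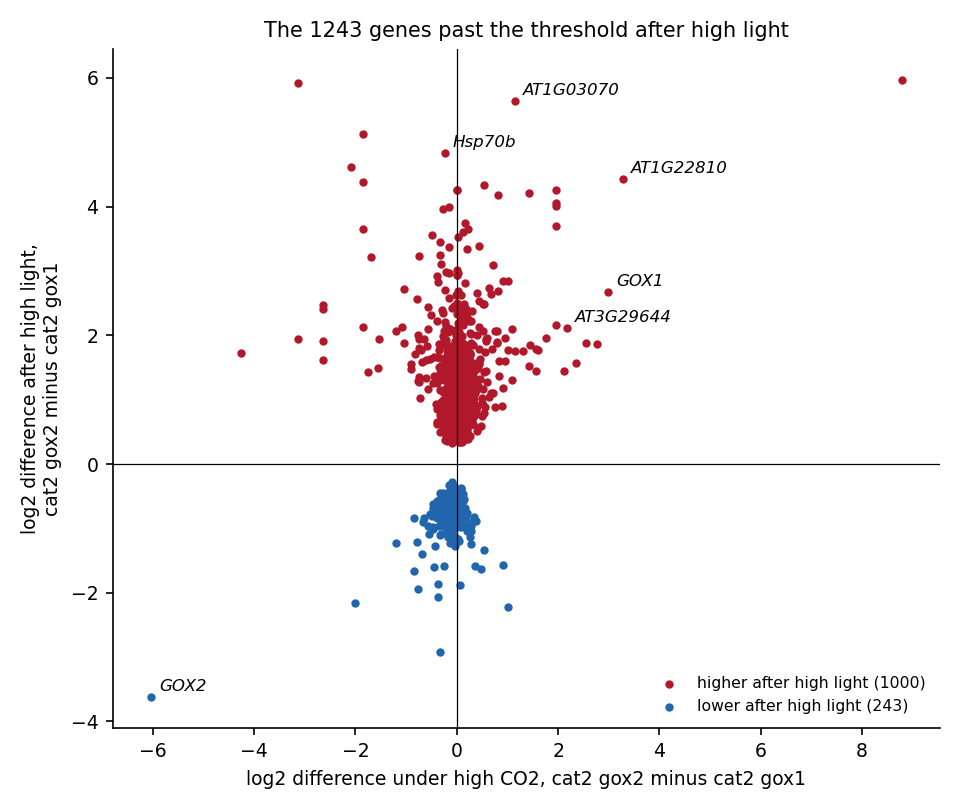
Log2 difference of cat2 gox2 over cat2 gox1 under high CO2 (horizontal) and after high light (vertical) for the 1243 genes called after high light. The differences after high light come from the 6 high light libraries and those under high CO2 from the 6 high CO2 libraries. Of the 1000 higher genes 554 have a positive difference under high CO2, and of the 243 lower genes 178 have a negative one.

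A direct test of whether the line difference itself differed between the conditions, which reuses the high light libraries, called 197 genes, 1.04% of those tested, of which 189 had a more positive difference after high light and 8 a more negative one. Hsp70b had 4.21, 3.93 and 5.99 CPM in cat2 gox2, against 4.97, 5.17 and 6.55 CPM in cat2 gox1 under high CO2, so the line difference was -0.24 there and 4.83 after high light, and these differed by 5.07 (adjusted p = 0.00162). EGY3 had 5.73, 4.82 and 6.19 CPM in cat2 gox2, against 6.47, 5.45 and 8.3 CPM in cat2 gox1 under high CO2, with a line difference of -0.28, against 3.96 after high light, and these differed by 4.24 (adjusted p = 0.000958). HSP17.4 is a case in which the test could not separate the conditions. It had at most 0.421 CPM in any high CO2 library, so its line difference there rested on a few counts, and the difference between conditions did not pass (3.81, adjusted p = 0.441).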

How the data were processed

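Leaf messenger RNA of 12 libraries in 4 groups was analysed, 3 libraries per group, and the high light groups carry the report. Trimming used Trim Galore 0.3.3, alignment to TAIR10 used TopHat2 2.1.0 and counting used featureCounts (Subread 1.4.6), per the submitters' processing notes. The authors deposited raw counts per gene. How strand and multiply aligned reads were treated is not given in the sources used here.

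Of 33604 entries in the deposited table, 2 named no gene and were left out, and 18967 genes with 99.96% of the counts passed filterByExpr (edgeR 4.0.16, R 4.3.3, minimum count 10, minimum total 15). Libraries were scaled by TMM, and 1 negative binomial model covered all 12 libraries, with a mean for each group (biological coefficient of variation 0.211). The quasi-likelihood test was two-sided, with Benjamini-Hochberg adjustment and a threshold of 0.05. SE is the size of the log2 difference divided by the square root of F and can be too small at few counts. A count is worth at most 0.0526 CPM, and the interval around the ratio of counts covers counting error only, because reads that carry no molecular identifier are not independent molecules. Under high CO2 same-numbered libraries of the lines correlated at 0.433, 0.501 and 0.765 in their deviations from the group means. Replicate 1 of cat2 gox1 correlated at 0.497 with replicate 2 of cat2 gox2, and replicate 2 of cat2 gox1 at 0.396 with replicate 1 of cat2 gox2. So these values set replicate 3 apart but do not show that the numbers are pairs, and the main fit held no replicate block. Adding the replicate numbers as a block left the number of calls under high CO2 at 3. The scripts were tested on simulated data.

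The comparison and 45 gene lists with 970 entries, of which 934 matched a locus and 865 distinct loci were tested, were chosen with earlier results of these data known. SAUR21 was left out of its list because the reference pairs that name with another kind of gene. Named genes were the mutated genes, the 10 largest rises and falls past the threshold with a mean of at least 5 CPM over the 6 high light libraries and no overlap, genes past the threshold in both conditions, and up to 2 members per list and direction. Others are marked in the text as chosen after their values were seen. Symbols, gene starts and sequences are from RefSeq on TAIR10.1. Alternatives were 19 other settings, among them DESeq2 1.42.0 and 12 fits that leave out 1 library each. Figures used matplotlib 3.10.9.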

Additional observations from a re-analysis of the deposited data

Results flagged for a closer look

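The difference between cat2 gox2 and cat2 gox1 after high light was set against the same difference under high CO2 in 1 model. For 16 named genes the 2 differences were themselves different. Each value below is the log2 line difference after high light minus that under high CO2, with its adjusted p from edgeR's quasi-likelihood test over 18967 genes.

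Among chaperones and their partners the value was 5.07 for Hsp70b (adjusted p = 0.00162), 4.13 for HSP70T-2 (adjusted p = 0.00403) and 2.68 for ATERDJ3A (adjusted p = 0.0103). It was 4.49 for the Bax inhibitor family gene AT1G03070 (adjusted p = 0.0322), 4.24 for EGY3 (adjusted p = 0.000958), 3.58 for AT1G72660 (adjusted p = 0.0458) and 1.49 for ATG8E (adjusted p = 0.0437). Among signalling genes it was 3.51 for RVE1 (adjusted p = 0.000809), 3.2 for SAUR9 (adjusted p = 0.00102), 2.55 for CML37 (adjusted p = 0.0403), 1.98 for WRKY22 (adjusted p = 0.0234) and 1.17 for NPR4 (adjusted p = 0.0159). The value was negative for AT3G04000 (-1.88, adjusted p = 0.0251), ATBRXL2 (-1.54, adjusted p = 0.045), IQD22 (-1.39, adjusted p = 0.00909) and NRAMP3 (-1.16, adjusted p = 0.00713). No group has more than 3 libraries, so single libraries were not tested as outliers.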

How the results depend on the processing

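No named gene changed direction under the 19 alternatives, but the medians of 20 of 43 gene lists changed sign under some of them. Of 1418 values of the 75 named genes under alternatives 1292 kept their direction and side of the threshold and 126 lost the threshold. 51 of the genes kept their call and direction throughout. With scaling by library totals alone 625 genes were higher after high light and 119 differed in their line difference between conditions. DESeq2 gave 388 lower genes after high light, 5 under high CO2 and 532 between conditions. A stricter filter left 1 gene under high CO2. Leaving out 1 library at a time gave 607 to 1328 higher and 81 to 296 lower genes after high light, 2 to 4 genes under high CO2 and 88 to 195 between conditions. The cause was not tested, beyond fewer samples or genes in those fits.

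The libraries share replicate numbers across groups, but after high light same-numbered libraries of the lines correlated at -0.192, 0.0598 and 0.230 in their deviations from the group means. The numbers were not taken as pairs in the main fit. With replicate number as a replicate block 1289 genes were higher and 436 lower after high light, 3 differed under high CO2 and 285 between conditions. With 3 libraries per group, genes near 1 count per library, such as HSP21 in cat2 gox1, are measured with little precision.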
